A study of Mus musculus with 4 samples.

Results

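Genes whose symbol is Gpr followed by a number (with an optional letter a, b or c) were followed in ribosome-bound RNA of the deep cerebellar nuclei, through which the cerebellum sends its output. The count files held 74 such names among 32532 gene names, found by symbol with no filter on measured values. The naming rule itself was chosen with earlier results of these data known. All 4 libraries were immunopurified samples of 1 group, with 3 adult mice pooled in each, of the Slc17a6-TRAP line JX883, whose transgene (Slc17a6-EGFP/Rpl10a) puts an EGFP tag on the ribosomes of cells that use Slc17a6 sequence, the gene of a vesicular glutamate transporter. Tagged ribosomes were captured with antibodies against EGFP. No treatment, input RNA or second cell type was among the samples used here, so the values are levels and differences between libraries, not enrichment over the tissue. Library numbers were 1300 to 1302 for replicates 1 to 3 but 1476 for replicate 4. Nothing in the labels tells how the mice were divided among samples, so the p-values measure how these 4 libraries vary, which may be technical.

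The prefix Gpr was given to genes predicted to encode G protein-coupled receptors before a ligand was known. Such receptors span the membrane repeatedly and pass a signal to G proteins, which raise or lower cyclic AMP or release calcium inside the cell. In neurons many of them set excitability and transmitter release, and some signal without any added ligand. The name covers more than orphan receptors: among these 74 genes are proton-sensing receptors such as Gpr4, Gpr65 and Gpr132, receptors with known lipid or metabolite ligands such as Gpr84 and Gpr183, and membrane proteins that are not known to act as receptors, such as the Golgi protein Gpr89. The names of most adhesion receptors that once carried the prefix were not among those counted, and the only 1 of that class was Gpr112, now called Adgrg4. Gpr37l1 and Gpr137b-ps fall outside the naming rule and are given only beside their relatives.

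Library depth, as the sum of gene counts, was between 9621762 (replicate 1) and 10988373 (replicate 4). Levels are given in CPM, counts scaled to a library total of 1000000. The absence of counts allows 0.273 to 0.312 CPM, which is what 3 counts amount to, and covers counting error only. All 9 markers set for glutamatergic nuclear neurons reached 1 CPM in every library, with Slc17a6 between 2011 and 2309 CPM. They summed to 2989, 2563, 2507 and 3066 CPM in replicates 1 to 4, most of it Slc17a6. Markers of other cells were also present. All 5 granule cell markers and 5 of 6 Purkinje cell markers reached 1 CPM in every library too. The summed level of 6 Purkinje cell markers ran from 1367 CPM in replicate 4 to 3676 CPM in replicate 3. Itpr1 (417 and 1738 CPM) and Rgs8 (617 and 808 CPM) were the largest parts of these sums. Pcp2 was low, at 0.910 CPM in replicate 4 and 9.68 CPM in replicate 3, and was highest in replicate 2. The other Purkinje cell markers were each highest in replicate 3. The summed level of 7 oligodendrocyte markers ran from 471 CPM in replicate 1 to 1151 CPM in replicate 3. The 7 microglia markers summed to between 4.16 and 14.3 CPM. Only Csf1r among them reached 1 CPM in every library (2.91 to 6.04 CPM), Cx3cr1 reached 5.46 CPM in replicate 4 and P2ry12 5.27 CPM in replicate 3, and C1qa had no count. In 2 further respects single libraries stood apart. Tcf7l2, a transcription factor of thalamus and midbrain, stood at 2486 CPM in replicate 1 and at 22.8, 42.0 and 8.55 CPM in replicates 2 to 4. The other markers added for midbrain and diencephalon did not share this pattern as a set. Gata3 and Tal1 were highest in replicate 1, but only at 0.520 and 1.66 CPM. Otx2 and Gata2 were highest in replicate 3 (5.65 and 17.4 CPM), and Sox14 in replicate 4 (1.55 CPM). Of the habenula markers added, Pou4f1 stood at 19.3, 0.485, 0.479 and 0.182 CPM in replicates 1 to 4. Chrna3 and Chrnb4 were also highest in replicate 1, but Gng8 was highest in replicate 4 and Tac2 in replicate 2. The Y-linked genes Ddx3y, Eif2s3y, Kdm5d and Uty had no count in replicate 4 and summed to 65.4, 15.2 and 64.5 CPM in replicates 1 to 3, while Xist stood at 111 CPM in replicate 4 and between 19.3 and 32.9 CPM in the others.

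Of the 74 genes, 39 (52.7%) reached 1 CPM in all 4 libraries, beside 34.5% of all gene names. Among names that GENCODE lists as protein coding the share was 52.3%, so the members lay near the background of coding genes. No count was seen in any library for 10 members, 13.5% beside 42.5% of all names and 24.7% of coding genes. The other 25 had counts but were under 1 CPM in at least 1 library. A mean of at least 10 CPM was reached by 27 members (36.5%), above the 27.2% of all names but below the 42.1% of coding genes. Only 4 of these members had a mean of at least 50 CPM. The median of the member means was 3.51 CPM, beside 0.171 CPM over all names and 4.81 CPM over coding genes. Among genes at 1 CPM in every library the median was 14.0 CPM for members and 29.0 CPM for all names. Whether a low level reflects fewer cells with the RNA or less RNA per cell cannot be told apart in pooled tissue.

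**Figure D1:**
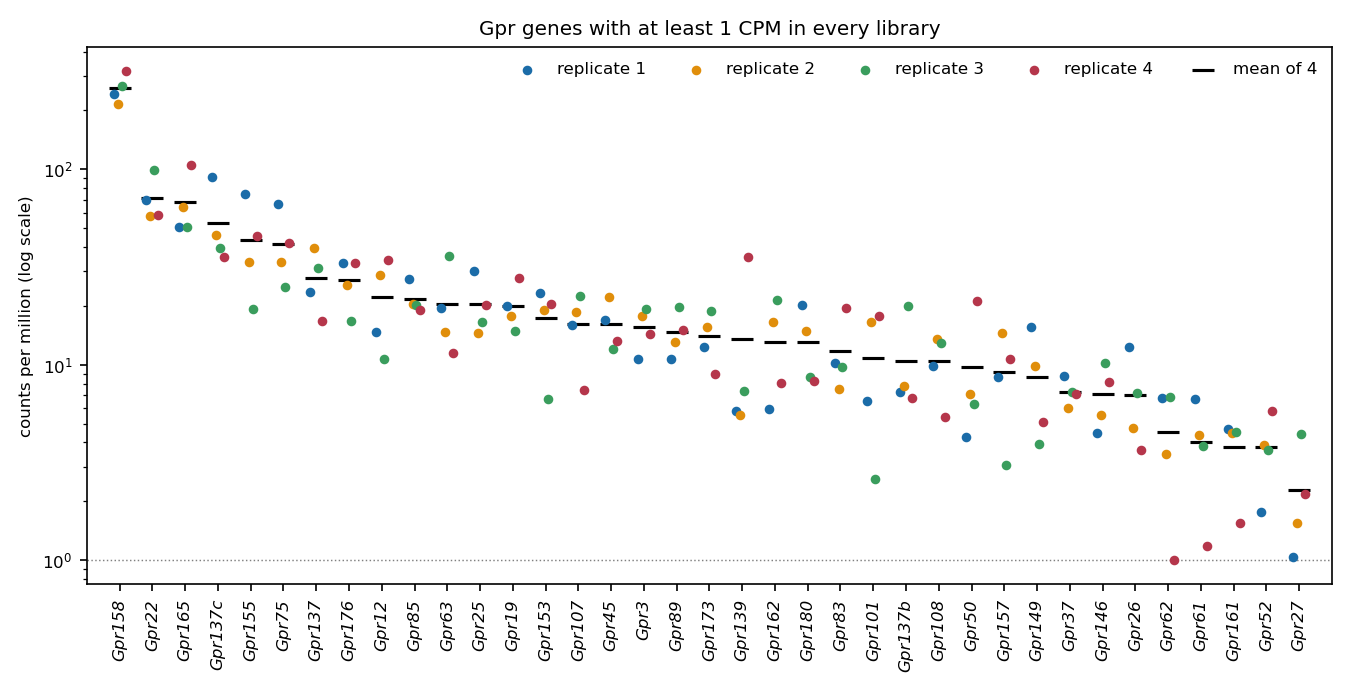
Level of 37 of the 39 Gpr genes with at least 1 CPM in every library, in CPM on a log axis, ordered by mean. Points are the 4 libraries, black bars their mean, and the dotted line marks 1 CPM. Gpr158 lies above all others in every library, between 217 and 317 CPM, and Gpr139 and Gpr50 have replicate 4 well above the other points.

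Gpr158 had the highest level of all members, both in CPM and per kb of exon. It encodes a class C receptor, the class of the metabotropic glutamate and GABA-B receptors, that binds the regulator of G protein signalling Rgs7 with Gnb5 and for which glycine has been reported as a ligand. Its plus-strand locus spans chr2:21367542-21830547 in GRCm38. Its level was 242, 217, 268 and 317 CPM in replicates 1 to 4, a mean of 261 ± 42.7 CPM (SD, n = 4). It took 23.2, 23.5, 28.5 and 29.5% of all member counts in the 4 libraries. The highest and lowest library differed by 1.46 times, which placed it among the steadier members. For its level this was ordinary: its spread was larger than that of 47.2% of the 500 genes nearest to it in level. Rgs7 stood at 173 ± 53.4 CPM and Gnb5 at 72.7 ± 38.0 CPM. Gpc4, which encodes a glypican reported to bind Gpr158 across the synapse, was low at 1.34 ± 1.19 CPM and had no count in replicate 4. A further class C member was far lower: Gpr179, known from the retina, had 5, 11, 0 and 24 counts in replicates 1 to 4 (0.943 ± 0.935 CPM). Per kb of exon, Gpr158 exceeded Gpr179 by a log2 ratio of 7.97 ± 0.99, lowest in replicate 4 at 7.11 and highest in replicate 3 at 9.29.

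Gpr22, a receptor gene of brain and heart, lies on chromosome 12 at 31706867 to 31713947 on the minus strand, inside the span of Cog5 on the opposite strand. It stood at 70.1, 57.9, 99.8 and 58.1 CPM (mean 71.4 ± 19.7), with replicate 3 the highest. Gpr165, on the X chromosome at 96713441 to 96719388, stood at 50.5, 63.8, 50.9 and 106 CPM (mean 67.8 ± 26.1). Here replicate 4 was the high library and the other libraries lay close together. Gpr75, on chromosome 11 at 30885358 to 30893729 and tied to body weight in mice and humans, stood at 66.1, 33.4, 25.1 and 41.9 CPM (mean 41.6 ± 17.7). Its annotated exons share 4.34% of their length with Asb3 on the same strand. Gpr176, known from the circadian clock of the suprachiasmatic nucleus, stood at 27.1 ± 7.84 CPM.

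Gpr158, Gpr22, Gpr165, Gpr137c and Gpr75 were among the 10 members with the highest CPM, not divided by length, in every library. Another 10 members entered that list in at least 1 library but not in all, Gpr155 and Gpr176 in 3 of 4 and Gpr139 in replicate 4 alone. Because CPM also grows with transcript length, levels of different genes were then compared per kb of exon. In CPM per kb the order was led by Gpr158 at 32.0 ± 5.22, Gpr25 at 18.9 ± 6.49, Gpr22 at 15.5 ± 4.28, Gpr165 at 14.9 ± 5.75, Gpr75 at 14.2 ± 6.05 and Gpr12 at 8.82 ± 4.51. Between neighbours in that order of 38 genes, only the first of 37 steps, Gpr158 over Gpr25, had the same direction in all 4 libraries (log2 ratio 0.80 ± 0.48). All later neighbours changed places in at least 1 library, so their order does not hold beyond the spread. Gpr25 owes its place to a short annotated exon length of 1077 bases. Of that length, 41.6% is shared with the antisense gene Gm26781, which is not among the names counted, so its counts of 291, 150, 172 and 221 may include antisense reads unless strand was used in counting.

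Proton-sensing receptors with few or no counts were Gpr4, Gpr65 and Gpr132. Gpr4, which in other tissues marks vessels, had 6, 0, 0 and 16 counts in replicates 1 to 4. Gpr65 had 3, 1, 0 and 0 counts, and Gpr132 had none. The endothelial and pericyte markers summed to 49.8, 12.9, 44.0 and 30.6 CPM over 6 genes in replicates 1 to 4. Among them Pecam1 (2.81, 1.16, 1.25 and 4.91 CPM) and Pdgfrb were highest in replicate 4, as Gpr4 was, Flt1 was highest in replicate 3, and Rgs5, Kdr and Cldn5 were highest in replicate 1. The part of vessel cells in the Gpr4 counts was not tested.

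Receptors that raise cyclic AMP without added ligand include Gpr3, Gpr6 and Gpr12, which are close relatives. Gpr12 stood at 14.7, 28.9, 10.6 and 34.4 CPM (mean 22.2 ± 11.3) and Gpr3 at 10.7, 17.8, 19.4 and 14.4 CPM (mean 15.6 ± 3.84). Gpr12 was high in replicates 2 and 4 and low in replicates 1 and 3, whereas Gpr3 had no such split. Per kb, Gpr12 over Gpr3 had a log2 ratio of 0.50 ± 0.87, with replicate 3 opposite in sign (-0.71), so the pair was not separated beyond its spread (exact sign-flip test, two-sided, p = 0.375). Gpr6, known from striatal neurons of the indirect pathway, had 1, 1, 0 and 0 counts. Against these 2 counts, Gpr12 with 928 counts in all was 330-fold higher per kb (exact 95% interval 91.1 to 2730) and Gpr3 with 646 counts was 211-fold higher (58.2 to 1750), intervals that cover counting error only. Leaving out 1 library moved the first ratio to 560 (without replicate 1) or 196 (without replicate 4). It moved the second to 355 (without replicate 1) or 145 (without replicate 3). In the same class, Gpr26 stood at 6.96 ± 3.83, Gpr62 at 4.51 ± 2.81, Gpr61 at 4.01 ± 2.25 and Gpr52 at 3.78 ± 1.66 CPM, and Gpr21, at 1.85 ± 1.80 CPM, had no count in replicate 3. Gpr21 lies within the span of Rabgap1 on the same strand. Gpr62 was higher than Gpr61 per kb in 4 of 4 libraries (log2 ratio Gpr61/Gpr62 -0.98 ± 0.47). Without division by length that ratio was -0.081.

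Because levels differed so much between close relatives, the DNA before the start of transcription was set beside them. RefSeq promoter windows (GRCm38.p6) of 300 bases, from 250 before the start to 50 after it, were matched by symbol to 51 of the 74 genes. A choice of 6 is shown 5′ to 3′ on the gene's own strand with CG dinucleotides in capitals. These are Gpr158 with the highest level, Gpr22 with its few CG dinucleotides, the trio Gpr12, Gpr3 and Gpr6 with their unlike levels, and Gpr33, a gene with no count. The windows lie at chr2:21367317-21367616 (plus strand) for Gpr158, chr12:31713834-31714133 (minus) for Gpr22, chr5:146585190-146585489 (minus) for Gpr12, chr4:133212487-133212786 (minus) for Gpr3, chr10:41072241-41072540 (minus) for Gpr6 and chr12:52028014-52028313 (minus) for Gpr33.
Gpr158: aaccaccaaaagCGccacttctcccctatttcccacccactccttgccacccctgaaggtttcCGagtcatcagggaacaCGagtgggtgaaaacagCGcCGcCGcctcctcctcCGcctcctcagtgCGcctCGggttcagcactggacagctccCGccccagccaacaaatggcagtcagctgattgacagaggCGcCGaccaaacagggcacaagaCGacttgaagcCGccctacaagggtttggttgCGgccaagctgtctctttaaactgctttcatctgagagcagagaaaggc
Gpr22: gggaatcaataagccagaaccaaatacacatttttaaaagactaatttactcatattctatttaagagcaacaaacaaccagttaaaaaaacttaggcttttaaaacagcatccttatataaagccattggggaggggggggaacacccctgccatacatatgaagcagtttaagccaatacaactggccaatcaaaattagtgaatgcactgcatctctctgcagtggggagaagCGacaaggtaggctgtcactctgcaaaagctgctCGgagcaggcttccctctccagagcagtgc
Gpr12: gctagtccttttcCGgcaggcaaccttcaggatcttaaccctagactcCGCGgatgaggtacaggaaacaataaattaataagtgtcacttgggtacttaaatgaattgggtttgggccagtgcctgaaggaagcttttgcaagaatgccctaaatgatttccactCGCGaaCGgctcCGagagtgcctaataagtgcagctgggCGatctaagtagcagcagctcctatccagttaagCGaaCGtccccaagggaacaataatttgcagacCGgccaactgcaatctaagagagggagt
Gpr3: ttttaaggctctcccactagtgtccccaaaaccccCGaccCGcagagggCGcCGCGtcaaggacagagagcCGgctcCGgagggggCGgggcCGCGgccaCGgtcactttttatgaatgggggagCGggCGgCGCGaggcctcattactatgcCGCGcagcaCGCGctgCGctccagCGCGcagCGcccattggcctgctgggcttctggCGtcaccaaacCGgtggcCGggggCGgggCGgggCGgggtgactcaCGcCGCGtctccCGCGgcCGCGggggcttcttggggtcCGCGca
Gpr6: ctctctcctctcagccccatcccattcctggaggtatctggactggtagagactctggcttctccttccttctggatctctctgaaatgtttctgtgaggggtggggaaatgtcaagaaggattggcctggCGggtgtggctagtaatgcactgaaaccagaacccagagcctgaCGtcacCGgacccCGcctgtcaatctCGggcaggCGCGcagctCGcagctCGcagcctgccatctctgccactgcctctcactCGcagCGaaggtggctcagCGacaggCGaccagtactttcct
Gpr33: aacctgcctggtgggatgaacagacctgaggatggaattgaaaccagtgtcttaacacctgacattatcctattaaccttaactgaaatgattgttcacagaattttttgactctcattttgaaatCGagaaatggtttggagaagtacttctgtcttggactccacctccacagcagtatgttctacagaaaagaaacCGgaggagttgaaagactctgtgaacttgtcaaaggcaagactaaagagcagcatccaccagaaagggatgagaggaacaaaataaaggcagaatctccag

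The windows held 15 CG dinucleotides for Gpr158, 2 for Gpr22, 11 for Gpr12, 38 for Gpr3, 13 for Gpr6 and 2 for Gpr33. Divided by the number expected from their C and G content, this gave 0.61, 0.14, 0.63, 0.98, 0.51 and 0.15. The motif TGACGTCA, the cyclic AMP response element, was searched on both strands and was found in the Gpr6 window and in no other member's window, beside 2.41% of the 16917 windows of all genes matched in the same way. The motif TATAAA, also searched on both strands, was found in the windows of 7 of the 51 members (13.7%), Gpr22 and Gpr165 among them, beside 12.8% of all windows. Such matches describe letters and not binding sites.

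A CG ratio of at least 0.6 was found for 17 of 29 members at 1 CPM in every library (58.6%), 2 of 14 with fewer counts (14.3%) and 0 of 8 with no count. Among those with no count, the windows of Gpr174, Gpr35 and Gpr132 lay 28468, 22254 and 7312 bases from the GENCODE gene start. For well-detected members that distance was at most 757 bases (Gpr108). Over all genes the same shares were 77.4, 38.8 and 6.91%. The order of the classes was therefore the same in members and in all genes, with a lower share among well-detected members. Gpr22 had the lowest ratio of the well-detected members after Gpr161 (0.069), with 71.4 CPM and 15.5 CPM per kb. Gpr160, with a ratio of 0.86, had 1 count in all.

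**Figure D2:**
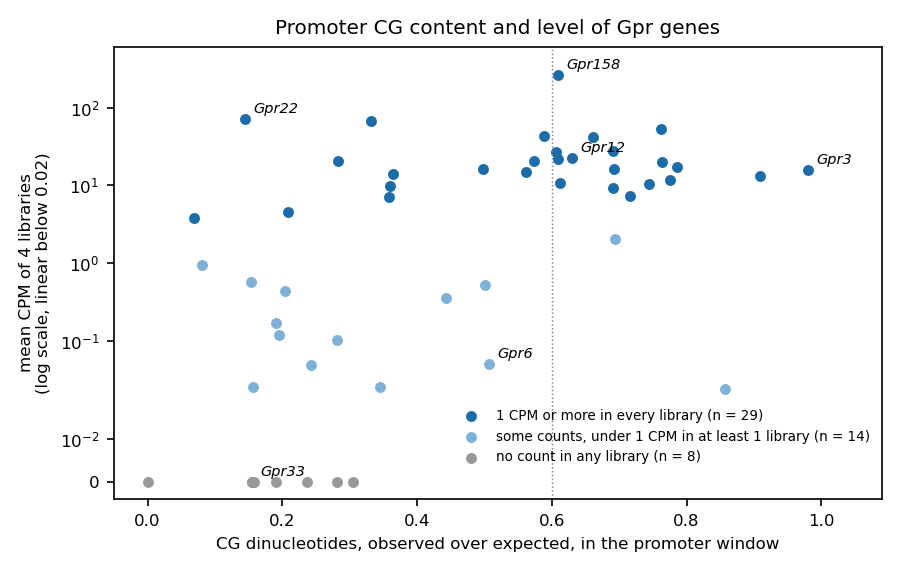
CG dinucleotides in the 300-base promoter window, as observed over expected, against the mean CPM of 4 libraries (log axis, linear close to 0) for 51 Gpr genes. Colours give the detection class and the dotted line marks a ratio of 0.6. Gpr22 combines a ratio of 0.14 with 71.4 CPM, and all 8 genes with no count lie left of the line. Among these 8, the windows of Gpr174, Gpr35 and Gpr132 lie far from the GENCODE gene start.

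The SREB family, named for super-conserved receptors expressed in brain, was detected whole. Gpr85 stood at 27.4, 20.5, 20.1 and 19.0 CPM (mean 21.8 ± 3.83), Gpr173, on the X chromosome, at 14.0 ± 4.24 CPM, and Gpr27 at 2.30 ± 1.48 CPM. Gpr27 ran from 1.04 CPM in replicate 1 to 4.41 CPM in replicate 3. Per kb, Gpr85 exceeded Gpr27 by a log2 ratio of 2.34 ± 0.88 and Gpr173 by 0.98 ± 0.50, and Gpr173 exceeded Gpr27 by 1.36 ± 0.65. These ratios held their direction in 4 of 4 libraries, so the order Gpr85, Gpr173, Gpr27 was the same in every library.

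Of the 34 further rhodopsin-like members, 19 reached 1 CPM in every library. Gpr63 and Gpr45 are related and stood at 20.4 ± 10.9 and 16.1 ± 4.64 CPM. Gpr63 was highest in replicate 3 (36.0 CPM, beside 19.5, 14.7 and 11.5 CPM in replicates 1, 2 and 4) and exceeded Gpr45 per kb by 1.73 ± 0.93 on the log2 scale in 4 of 4 libraries. Without division by length the ratio was 0.24. Gpr153 and Gpr162, another related pair, stood at 17.4 ± 7.36 and 13.04 ± 7.31 CPM. In replicate 3 Gpr153 was at its lowest (6.71 CPM) and Gpr162 at its highest (21.6 CPM), and in replicate 1 the reverse held (23.4 and 5.92 CPM). Their log2 ratio per kb was 0.42 ± 1.54 and without replicate 1 it turned to -0.069. Gpr19 stood at 20.1 ± 5.49 CPM.

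Among the members tied to proSAAS peptides, Gpr83, a receptor reported for the peptide PEN, stood at 11.7 ± 5.30 CPM and was highest in replicate 4 (19.5 CPM). Gpr171, reported as a receptor for BigLEN, had 11, 4, 0 and 54 counts. Gpr171 lies within the span of Med12l on the opposite strand. Their precursor gene Pcsk1n stood at 309 ± 35.3 CPM. Gpr37, for which prosaposin has been proposed as a ligand and which oligodendrocytes express, stood at 8.73, 6.02, 7.28 and 7.10 CPM (mean 7.28 ± 1.12). The oligodendrocyte markers summed to 471, 729, 1151 and 999 CPM in the same libraries. The part of oligodendrocytes in the Gpr37 value was not tested. The prosaposin gene Psap stood at 358 ± 96.7 CPM. Gpr37l1, a relative outside the naming rule, stood at 15.4 ± 8.37 CPM.

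Gpr101, an X-linked receptor gene, stood at 6.55, 16.6, 2.59 and 17.8 CPM (mean 10.9 ± 7.47). Like Gpr12 it was high in replicates 2 and 4 and low in replicates 1 and 3. Gpr149 and Gpr146 stood at 8.60 ± 5.30 and 7.11 ± 2.61 CPM. Gpr161, which acts in the primary cilium to restrain Hedgehog signalling, stood at 4.68, 4.46, 4.50 and 1.55 CPM, so that replicates 1 to 3 lay together and replicate 4 was low. Gpr135 stood at 2.07 ± 1.96 CPM and was outside the set at 1 CPM in every library. It had 0.862 CPM in replicate 3 and 0.273 CPM in replicate 4. Gpr62, at 1.001 CPM in replicate 4, was just inside that set. Gpr151, a marker of the habenula, had 12, 0, 6 and 0 counts. Gpr152, Gpr182 and Gpr1 had means from 0.574 to 0.629 CPM. Gpr141, Gpr160 and Gpr20 had at most 7 counts in any library, and Gpr142, Gpr15, Gpr33, Gpr39 and Gpr82 had none.

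None of the 11 receptors for lipids, metabolites or purines reached 1 CPM in every library. Gpr35 and Gpr174 had no count, and Gpr18, Gpr31b, Gpr55 and Gpr119 had at most 3 counts in a library. Gpr34, Gpr84 and Gpr183, known from microglia and other immune cells, stood at 0.289 ± 0.235, 0.435 ± 0.317 and 0.359 ± 0.541 CPM, beside the microglia markers given above. The part of microglia in these values was not tested. Gpr17, which marks oligodendrocytes at an early stage of maturation, had 1, 4, 8 and 57 counts, or 5.19 CPM in replicate 4 and at most 0.767 CPM elsewhere. The 5 markers set for oligodendrocyte precursors summed to 26.0, 39.0, 65.9 and 52.5 CPM, highest in replicate 3. Among them Pdgfra (1.87, 3.30, 2.78 and 8.46 CPM) and Olig2 were highest in replicate 4, Olig1 and Cspg4 were highest in replicate 3, and Neu4 was highest in replicate 2 and lowest in replicate 4 (0.182 CPM). Opalin, a gene of maturing oligodendrocytes, stood at 0.104, 0, 0.383 and 3.46 CPM. The part of such cells in the Gpr17 value was not tested. Gpr17 lies inside the span of Lims2 on the opposite strand, and 3.62% of its exon length is shared with it.

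Of the 10 members that encode membrane proteins outside the receptor classes, 9 reached 1 CPM in every library and 8 had a mean of at least 10 CPM. Gpr155, a lysosomal cholesterol sensor, stood at 74.9, 33.6, 19.3 and 45.5 CPM (mean 43.3 ± 23.7). Gpr137c stood at 90.8, 45.9, 39.7 and 35.6 CPM (mean 53.0 ± 25.6). Both were highest in replicate 1, the library in which Tcf7l2 was high, and the part of that difference between libraries was not tested. Gpr137, Gpr137b and Gpr137c are relatives, and Gpr137b acts at the lysosome. Gpr137 stood at 27.9 ± 9.93 CPM and Gpr137b at 7.28, 7.76, 19.9 and 6.73 CPM, where replicate 3 alone was high. Per kb Gpr137 exceeded Gpr137b by a log2 ratio of 2.02 ± 0.69 in 4 of 4 libraries. Gpr137b may share reads with Gpr137b-ps, which was counted separately at 13.7, 9.02, 13.5 and 8.10 CPM, and 15.4% of the exon length of Gpr137 overlaps Bad on the opposite strand. Per kb Gpr137 and Gpr137c were not separated (0.49 ± 0.79, replicate 1 at -0.55).

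The Golgi proteins Gpr107 and Gpr108 kept the tightest ratio of all pairs. Gpr107 stood at 15.9, 18.5, 22.4 and 7.46 CPM and Gpr108 at 9.87, 13.6, 12.8 and 5.37 CPM, both lowest in replicate 4. Their log2 ratio per kb was -1.50, -1.72, -1.38 and -1.72 in replicates 1 to 4 (mean -1.58 ± 0.17). The sign depends on the length used: with no division by length the ratio was 0.58, and with the longest transcript of each gene it was -0.77. Gpr89, a pH regulator of the Golgi, stood at 14.7 ± 3.88 CPM, with 24.9% of its exon length shared with Pdzk1 on the opposite strand. Gpr180 ran from 8.28 CPM in replicate 4 to 20.2 CPM in replicate 1, and Gpr157 stood at 9.22 ± 4.76 CPM. Gpr143, a receptor-like protein of pigment cells, had 8 counts in replicate 4 and none elsewhere.

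**Figure D3:**
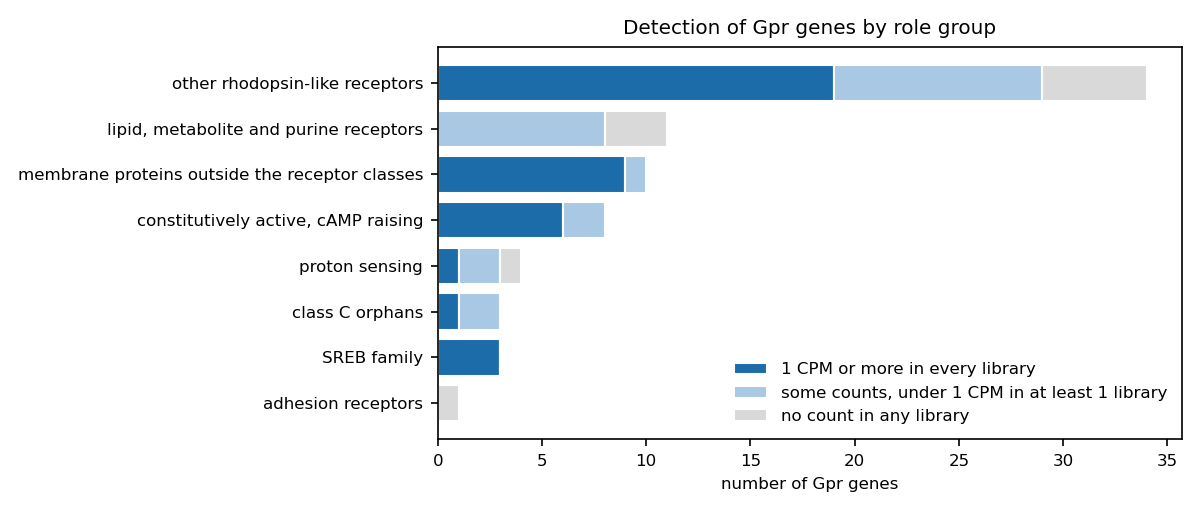
Number of Gpr genes in each role group, split by detection over the 4 libraries. Dark bars count genes at 1 CPM or more in every library: 9 of 10 membrane proteins outside the receptor classes, 6 of 8 cyclic AMP raising receptors, 3 of 3 of the SREB family and 0 of 11 lipid, metabolite and purine receptors.

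Of 22 pairs of related genes that had been listed, 12 could be given as a log2 ratio of (CPM + 0.5) per kb, and 9 of these 12 had the same direction in every library. With 4 libraries an exact sign-flip test cannot go below p = 0.125 (two-sided), so no ratio could pass 0.05 and the direction count is given in its place. The ratio Gpr158/Gpr179 rests in part on a library with no count of Gpr179 and depends on the pseudocount in size. Gpr139 with 579 counts was at least 44.5-fold higher per kb than Gpr142, which had no count, set against 3 counts over the group. Without replicate 4 that bound was 14.6-fold. For Gpr65/Gpr132 both genes were at or under the floor, Gpr52 was given no length, and the other 5 pairs include a gene that is not analysed here.

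**Figure D4:**
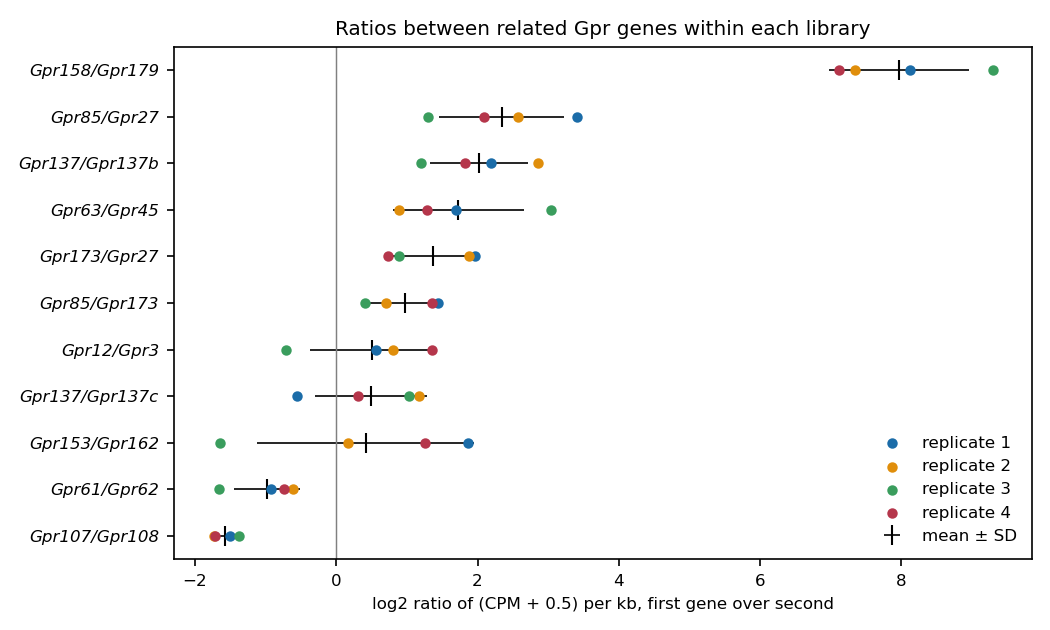
Log2 ratio of (CPM + 0.5) per kb of exon for 11 of the 12 pairs of related Gpr genes within each library, first gene over second. Points are libraries, black ticks the mean with 1 SD, and the vertical line marks equal levels. Gpr107/Gpr108 has the narrowest spread (SD 0.17) and Gpr153/Gpr162 the widest (SD 1.54), with points on both sides of 0.

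To ask whether any library differed in these genes, each library was set against the other 3 over all genes with edgeR's quasi-likelihood test, with Benjamini-Hochberg adjustment over the 15083 genes tested. This test kept 51 of the 74 members. None of the 51 passed an adjusted p of 0.05 in any of the 4 comparisons. Over all genes tested 0.0199% were called in replicate 1, 0% in replicates 2 and 3 and 0.0464% in replicate 4 (0.0398% higher and 0.00663% lower), so calls were rare throughout. The median log2 fold changes over all genes tested were -0.10, -0.093, -0.10 and -0.16 in replicates 1 to 4, and those over the members tested were -0.28, -0.094, -0.34 and -0.013. In this design the lone library is assumed to vary like the other 3. At an unadjusted p under 0.05 edgeR gave 1, 0, 5 and 4 of the 51 members in replicates 1 to 4 (1.96, 0, 9.80 and 7.84%). Over all genes tested it gave 497, 78, 1058 and 2222 (3.30, 0.517, 7.01 and 14.7%), so the share of members in replicate 4 was below that of all genes. The only member that DESeq2's Wald test called was in replicate 4. The share of all genes called was counted for the edgeR fit above alone. Calls under DESeq2 and other settings therefore have no background beside them.

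That 1 member was Gpr139, a receptor for aromatic amino acids best known from the medial habenula, on chromosome 7 at 119140747 to 119184603. It stood at 5.82, 5.53, 7.38 and 35.4 CPM in replicates 1 to 4. Its values in replicates 1 to 3 lay close together and replicate 4 was far above them. In edgeR's test the log2 fold change of replicate 4 over the others was 2.65 ± 0.57 (SE, adjusted p = 0.138). The adjusted p was 0.0159 with DESeq2, 0.00575 with edgeR and no filter on low counts, and 0.0398 with edgeR without replicate 3. Over all alternatives it ran from 0.00575 to 0.14, with log2 fold changes from 2.55 to 2.82. Its spread between libraries was larger than that of 97.8% of the 500 genes nearest to it in level. Gpr151, also of the habenula, had no count in replicate 4, and 5 added habenula markers summed to 61.1, 11.1, 27.8 and 25.8 CPM in replicates 1 to 4. Of these 5, Gng8 was highest in replicate 4 (3.33, 5.73, 7.86 and 14.1 CPM), Pou4f1, Chrna3 and Chrnb4 were highest in replicate 1, and Tac2 was highest in replicate 2. The part of habenula cells in the Gpr139 value was not tested.

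Gpr165, Gpr50 and Gpr17 were the other members with an unadjusted p under 0.05 in replicate 4 (4 members in all, 7.84% beside 14.7% of all genes tested), and their values were higher there. Gpr50, a melatonin-related receptor that does not bind melatonin, stood at 4.26, 7.08, 6.32 and 21.2 CPM. Its log2 fold change was 1.98 ± 0.68 (edgeR, adjusted p = 0.235). For Gpr165 it was 1.092 ± 0.36 (edgeR, adjusted p = 0.23), and for Gpr17 it was 3.70 ± 1.58 (edgeR, adjusted p = 0.313). Gpr165 and Gpr50 are X-linked, and replicate 4 is the library with no Y-linked count and the highest Xist. The X-linked Gpr101 was also highest in replicate 4 (17.8 CPM, with replicate 2 at 16.6), while the fourth well-detected X-linked member, Gpr173, was lowest there (9.01 CPM). The part of the sex of the mice in these values was not tested.

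Lower in replicate 4 were Gpr62, at 6.76, 3.49, 6.80 and 1.001 CPM, and Gpr61, at 6.65, 4.37, 3.83 and 1.18 CPM. Neither passed (edgeR, adjusted p = 0.403 and 0.495). In replicate 3 the members with an unadjusted p under 0.05 were Gpr63, higher by a log2 fold change of 1.30 ± 0.56, and Gpr155, Gpr153, Gpr101 and Gpr21, lower there. Their log2 fold changes were -1.35, -1.60 and -2.40, and that of Gpr21 depends on its 0 counts in replicate 3 (edgeR, adjusted p from 0.648 to 0.671 for these 5 members). Replicate 3 was also the library with the highest sums of markers of Purkinje cells, granule cells and inhibitory nuclear neurons (3676, 1050 and 369 CPM). The same held for markers of oligodendrocytes, oligodendrocyte precursors, astrocytes with Bergmann glia, and microglia (1151, 65.9, 271 and 14.3 CPM). The part of those cells was not tested. In replicate 1 the member was Gpr137c (log2 fold change 0.97 ± 0.45, edgeR, adjusted p = 1).

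**Figure D5:**
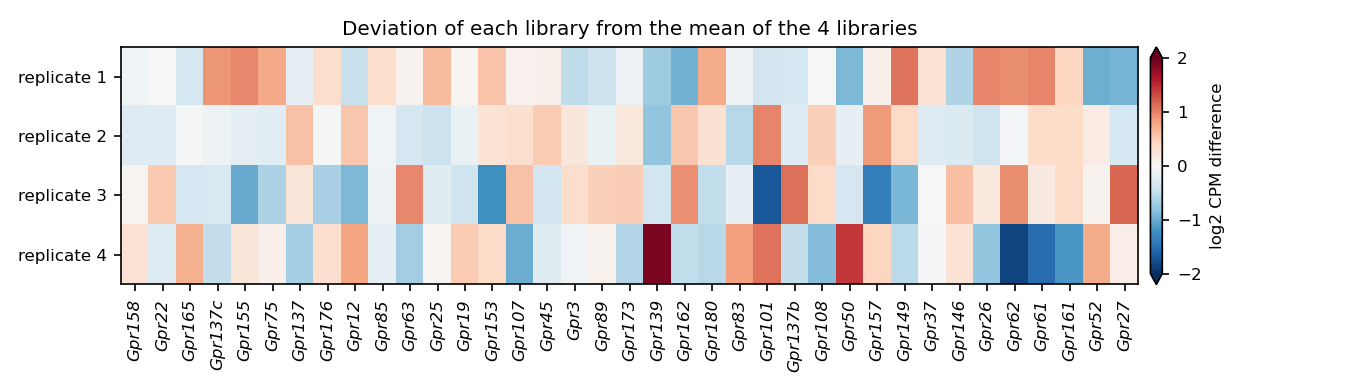
Log2 CPM of each library minus the mean of the 4 libraries for 37 of the 39 Gpr genes with at least 1 CPM in every library, ordered by mean level. Red is above the mean and blue below, with colours limited at 2. Replicate 4 is reddest at Gpr139 and Gpr50 and bluest at Gpr62, Gpr61 and Gpr161.

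Across the 39 well-detected members the coefficient of variation between libraries reached 108% (Gpr139) and was 15.3% for Gpr37 and 16.3% for Gpr158, with a median of 42.5%, beside 33.5% for all genes at 1 CPM in every library. Members are lower in level than those genes, as given above. Against the trend of spread with level, 16 of the 39 lay above it. The share of all genes above it was not computed, so this count does not show whether members were steadier or not. Gpr107, for one, lay below the trend but varied more than 56.4% of the 500 genes nearest to it in level. Each library was the highest of the 4 for 13, 4, 12 and 10 members (33.3, 10.3, 30.8 and 25.6%), beside 34.7, 15.1, 25.0 and 25.2% of all genes at 1 CPM. Replicate 4 was lowest for 14 members (35.9%, beside 37.0% of all such genes). The members' split over libraries was thus near that of the genes around them.

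The proteins that receive and end the signal of such receptors were mostly detected. Of 13 G protein alpha subunit genes 11 reached 1 CPM in every library. Gnas, which raises cyclic AMP, stood at 3353 ± 238 CPM, and Gnao1, the main inhibitory subunit of brain, at 1583 ± 315 CPM. Gnal, a relative of Gnas, stood at 828 ± 162 CPM and Gna14 had no count. Of 9 adenylyl cyclase genes 8 reached that level. Adcy1 stood at 393 ± 127 CPM, and Adcy4 at 0.524 ± 0.444 CPM did not reach it. Of 7 genes for receptor kinases and arrestins 6 did. Arrb1 stood at 322 ± 53.4 CPM and Grk4 at 1.29 ± 0.412 CPM. These values are not divided by length and give no order between genes. Of 9 genes for proposed ligands and partners of members, 5 reached 1 CPM in every library, and Psapl1 had no count.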

How the data were processed

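Ribosome-bound RNA of 4 immunopurified libraries was counted per gene name. The deposited files hold raw counts, and their 5 summary rows entered neither totals nor tests. The submitters' processing notes list STAR 2.0.0e, HTSeq and mm10. Which annotation and strand setting served was not given in the sources used here. Reads of antisense genes may therefore not be separated, and 21 members overlap exons on the opposite strand. Reads with no feature made up 14.1 to 21.1% of all reads, ambiguous reads 2.04 to 2.94% and reads that were not unique 14.2 to 20.6%. Rn45s, the ribosomal RNA precursor, took 4.92 to 14.2% of gene counts and stayed in the totals.

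CPM was computed over all named genes. Lengths are unions of exons in GENCODE mouse release 21 (GRCm38), found for 73 of 74 members, 1 of them by an older symbol (Gpr52 had none). No library was a copy of another: chi-square over its degrees of freedom was at least 32.9 for every pair. Tests of 1 library against the rest used R 4.3.3 and edgeR 4.0.16 (TMM, filterByExpr, robust glmQLFit, glmQLFTest, 2 residual degrees of freedom), and the code was tested on simulated data. DESeq2 1.42.0 was an alternative, as were no filter, totals without Rn45s, other CPM minimums, pseudocounts and lengths, and leaving out libraries.

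Members, role groups, pairs and marker lists were chosen with earlier results of these data known. The lists of habenula, midbrain, X and Y genes were added after values were seen. Named with values are members with a mean of at least 1 CPM, members of the pairs, members called in a test, members with a library far from the rest, members next to the 1 CPM limit, and the highest and lowest gene of each pathway list. Other genes were named after their values were seen. Some members are counted in the totals but are not reported here by name.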

Additional observations from a re-analysis of the deposited data

Results flagged for a closer look

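Of 44 members with a mean of at least 1 CPM, 5 had 1 library far from the other 3 by Dixon's ratio at its 95% critical value for 4 samples. Chance flags about 5% of groups. By the same measure 9.23% of the 13656 genes with a mean of at least 1 CPM had such a library, beside 11.4% of the members. Gpr139 in replicate 4 stood at 35.4 CPM, beside 5.53 to 7.38 CPM in the others. Gpr50 in replicate 4 stood at 21.2 CPM, beside 4.26 to 7.08 CPM. Gpr17 in replicate 4 stood at 5.19 CPM, beside 0.104 to 0.767 CPM. Gpr161 in replicate 4 was low at 1.55 CPM, beside 4.46 to 4.68 CPM. Gpr137b in replicate 3 stood at 19.9 CPM, beside 6.73 to 7.76 CPM. In 4 of these 5 genes the distant library was replicate 4, as it was in 441 of 1261 such genes overall (35.0%). With 5 genes, this difference was not tested.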

How the results depend on the processing

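The count of members at 1 CPM in every library, 39, ran from 33 (minimum 2 CPM) to 40 (minimum 0.5 CPM) under other minimums and totals, and from 39 to 40 when any 1 library was left out. The count of members called in replicate 4 against the other 3 was 0, and 1 with DESeq2 and with no filter on low counts. It ran from 0 to 1 when a library was left out. In replicates 1 to 3 it was 0 under every alternative run. The cause of these changes was not tested, and the share of all genes called was not counted under these alternatives. Ratios that turned in sign were Gpr107/Gpr108 (0.58 with no division by length), Gpr137/Gpr137c (-0.88 with no division by length) and Gpr153/Gpr162 (from -0.069 without replicate 1 to 1.10 without replicate 3). A further 8 values moved by more than their spread or counting interval, with no change of direction, and the fold change of Gpr139 in replicate 4 passed the threshold under 3 alternatives. No paired analysis was possible because the labels give 1 group. Depth limits members under the level of 3 counts, 0.273 to 0.312 CPM.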

Other observations

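Detection also differed with gene structure. Of 41 members whose coding sequence lies in 1 exon block, 14 (34.1%) reached 1 CPM in every library, and of 32 with several coding blocks 24 did (75.0%). The median of the member means was 0.587 CPM in the first set and 10.4 CPM in the second. Members with no count were 5 in each set. These sets differ in role as well, since all 10 membrane proteins outside the receptor classes have several coding blocks. The difference was not tested, and the same shares were not computed over all genes. It can therefore not be called particular to these members. Of the 10 X-linked members 4 reached 1 CPM in every library (Gpr165, Gpr173, Gpr101 and Gpr50) and 3 had no count (Gpr112, Gpr174 and Gpr82).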
